A study of Mus musculus with 13 samples.

Results

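The genes described here are the writer of N4-acetylcytidine (ac4C), its adaptor and 8 proteins that act in ribosomal RNA (rRNA) processing: Nat10, Thumpd1, Fbl, Dkc1, Nop56, Nop58, Ncl, Npm1, Polr1a and Utp20. They were chosen by name and found in the count files by Ensembl identifier, 10 of 22442 genes in the Ribo-seq files and 10 of 21898 in the acRIP-seq files. Ribo-seq counts footprints, the stretches of mRNA that stay under a ribosome when RNase I digests the rest, so a footprint count on a coding sequence (CDS) reflects both the amount of an mRNA and how heavily it is read. The 11 Ribo-seq libraries came from 21-day-old mice on a C57BL/6J background, about 100 oocytes each: 3 WT and 3 Nat10-ZcKO libraries at the germinal vesicle (GV) stage, and 2 WT and 3 Nat10-ZcKO libraries at metaphase II (MII), ovulated after hormone treatment. In the paper's methods GV oocytes too came from mice given a gonadotropin (PMSG), and for ovulated oocytes a further gonadotropin (hCG) followed it. acRIP-seq, which sequences mRNA fragments pulled down by an antibody, gave 1 anti-ac4C and 1 anti-IgG library from about 2000 WT GV oocytes each. Nat10-ZcKO females carry Zp3-Cre with 1 floxed and 1 deleted Nat10 allele (Nat10 lox/-) in the study's breeding scheme. Zp3-Cre acts in the oocyte once follicles begin to grow, so follicle cells keep the floxed copy. The series text also mentions tamoxifen injections, which Zp3-Cre does not need, and which animals received them is not given in the sources used here. The labels do not say whether replicates came from separate animals, and p-values therefore measure the spread between these libraries.

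Ribosomal RNA is transcribed in the nucleolus by RNA polymerase I as a long precursor, which is modified, cut and folded into the 2 ribosomal subunits. Small nucleolar ribonucleoproteins (snoRNPs) modify it: box C/D particles, built on Fbl, Nop56 and Nop58, methylate riboses, and box H/ACA particles, with the pseudouridine synthase Dkc1, convert uridines. Nat10 acetylates cytidines of the small subunit rRNA and, with Thumpd1 as adaptor, of certain transfer RNAs. In the growing oocyte the nucleolus is highly active. Near the end of growth it becomes compact and transcription stops, and from then on translation of stored maternal mRNAs sets which proteins are made. A cytoplasmic polyadenylation element (CPE) near the end of a stored mRNA is a well-known signal for translation to start during maturation.

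Nat10 lies on chromosome 2 of GRCm38, from 103721256 to 103761270 on the minus strand. Its principal annotated transcript has 29 exons and 3072 coding bases before the stop codon. The study places loxP sites around exons 4 and 5, which hold 295 coding bases, 201 to 495 of the CDS, or 9.60% of it. This number is not a multiple of 3, so a transcript that joined exon 3 to exon 6 would be out of frame. The exons are shown because they are the sequence that the knockout removes. Exon 4 is chr2:103754059-103754230 and exon 5 is chr2:103752580-103752702, both given 5′ to 3′ on the minus strand of GRCm38, with the sites of the study's real-time PCR primers for Nat10 in capitals.
Nat10 exon 4: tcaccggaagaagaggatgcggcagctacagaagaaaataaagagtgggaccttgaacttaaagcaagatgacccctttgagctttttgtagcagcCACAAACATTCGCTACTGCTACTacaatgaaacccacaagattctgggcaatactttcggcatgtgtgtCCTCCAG
Nat10 exon 5: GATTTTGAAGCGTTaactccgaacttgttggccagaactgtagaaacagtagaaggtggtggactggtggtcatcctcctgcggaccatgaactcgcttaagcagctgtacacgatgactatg
The primers span 90 bases that lie wholly inside the deleted part, and the reverse primer crosses the junction of the 2 exons. The genotyping primers sit in the flanking introns. NL-F, at chr2:103754696-103754719, reads toward exon 4, NL-R, at chr2:103754534-103754557, pairs with it across 186 bases of the reference, and ND-R, at chr2:103752098-103752120, lies beyond exon 5, so that NL-F and ND-R span 2622 bases on an intact chromosome.
NL-F: GGAACCATGAGTATTGTAGCCTGC
NL-R: CTATTGGCTGTGACTTCAGCAGAC
ND-R: GTCTTGTTTGGGAAGGGCACTAC
The deposited files give a single total for each gene, so footprints on exons 4 and 5 cannot be told from those on other Nat10 exons. The paper describes a shifted reading frame and presumes decay of the mRNA, so footprints beyond these exons could be lost as well. Nat10 counts were low, with 8, 11 and 3 in WT GV libraries and 4, 1 and 5 in Nat10-ZcKO GV libraries. Whether the exons were lost was not tested.

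Library totals ran from 4815 to 279464 counts on genes. WT MII replicate 2 held the 4815 counts, with 6 on the 10 genes, and the fitted changes that use it are also given without it. Nat10-ZcKO GV replicates 1 and 2 stood apart as well: 12 oocyte markers, among them Padi6, Zp2 and Zp3, made up 0.0212% and 1.54% of the counts in these libraries, where WT GV had 5.603% to 7.70% and Nat10-ZcKO GV replicate 3 had 11.04%. Not every marker followed this sum in replicate 2. Oosp1 had 44 counts there, against 49, 75 and 34 in the WT GV libraries, all of them deeper, while Padi6 had 196 against 2818, 7792 and 2681. In replicate 1, 15 granulosa and cumulus markers took 1.14% and 10 adipocyte markers 0.526%, the highest shares of the series. At MII, oocyte markers took 1.14% to 1.38% in the Nat10-ZcKO libraries and 1.17% in WT replicate 1. The cumulus expansion genes Ptx3 and Tnfaip6 had 62 to 285 and 31 to 83 counts in those 4 MII libraries and at most 1 count in any GV library, while Amh, a granulosa gene, went from 13 to 93 counts at GV to at most 4. The part of follicle cell RNA in the results below was not tested, and fewer cells of a type and less RNA per cell cannot be told apart in such libraries.

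Footprints on Nat10 were few at both stages and in both genotypes. WT GV libraries had 8, 11 and 3 counts and Nat10-ZcKO GV libraries 4, 1 and 5. At MII the WT pair had 1 and 5 counts, and the 3 knockout libraries 6, 3 and 2. As CPM, the count per 1000000 counts of a library, this was 55.0, 39.4 and 31.2 in WT GV, while Nat10-ZcKO GV had 94.4, 19.3 and 18.0, so the highest and the 2 lowest GV values were all from the knockout, and the genotypes overlapped. The 94.4 CPM belongs to Nat10-ZcKO GV replicate 1. At MII the Nat10-ZcKO libraries were at 31.9, 20.4 and 12.5 CPM and WT replicate 1 at 7.42 CPM. The 5 counts in WT MII replicate 2 stand for 1038 CPM in that library, where 1 count is worth 208 CPM. Nat10 had too few counts for the GV, MII and maturation fits. In the fit of all 11 libraries its interaction was not called (adjusted p = 0.908, edgeR quasi-likelihood test), and the sign of that value turned without WT MII replicate 2 (adjusted p = 0.971). Against Nat10-ZcKO GV replicate 3 alone, the GV genotypes did not pass the test either (adjusted p = 0.741). Per length of CDS, as TPM, Nat10 reached 17.5 ± 4.90 TPM in WT GV (SD, n = 3), at the 58.1th percentile of the 11398 genes with a count there, so its footprint density was close to the middle of the genes read.

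Thumpd1, which binds tRNA through its THUMP domain and helps Nat10 acetylate it, had the largest called rise of the 10 genes between GV and MII. It lies on chromosome 7, from 119715093 to 119720798 on the minus strand. WT GV libraries had 5, 15 and 3 counts (34.4, 53.7 and 31.2 CPM). Nat10-ZcKO GV libraries had 0, 0 and 3 counts (0, 0 and 10.8 CPM). At MII, WT replicate 1 had 40 counts (297 CPM), WT replicate 2 had 0, and the Nat10-ZcKO libraries had 60, 23 and 44 counts (319, 157 and 276 CPM). Every MII library except the 4815-count one lay above every GV library, in both genotypes. The 0 in that library allows up to 623 CPM, taking 3 counts as the limit, so it does not bear on the order. In Nat10-ZcKO oocytes Thumpd1 rose by 4.60 on the log2 scale (SE 0.935, adjusted p = 0.0145, edgeR). Since the knockout GV group holds only 3 counts, the size is better read from the pooled counts: 127 of 494389 at MII against 3 of 371193 at GV, a ratio of 31.8 with exact 95% bounds of 10.6 and 156 from counting error alone. Without the 2 GV libraries that stood apart, Thumpd1 rose by 4.17 (SE 0.836), a pooled ratio of 23.7 (7.94 to 117). In WT, the fit of all 5 libraries left Thumpd1 out for low counts. Without WT MII replicate 2, which leaves 1 MII library, it rose by 2.84 (SE 0.450), and the pooled ratio of MII replicate 1 to GV was 6.72 (3.93 to 11.8). In each of these fits Thumpd1 passed the count filter only through MII libraries, where it was high, so the filter itself favoured a rise. The pooled ratios use the counts without this filter.

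At the GV stage, Thumpd1 was also the only gene among the 10 that was lower in every Nat10-ZcKO library than in every WT library. Pooled, WT GV had 5.46 times the CPM of Nat10-ZcKO GV, with counting bounds of 1.65 and 28.4, and 4.08 times that of Nat10-ZcKO GV replicate 3 alone, with bounds of 1.23 and 21.2. A count of 0 in knockout replicates 1 and 2 allows up to 70.8 and 58.0 CPM, above the WT values, so only replicate 3 bears on this order. How many of all genes showed such an order between groups was not counted, for Thumpd1 or for the genes below. Thumpd1 had too few counts for the test between genotypes at GV with all 6 libraries, and against replicate 3 alone the change was -1.70 (SE 1.28, adjusted p = 0.597, edgeR). At MII, WT replicate 1 (297 CPM) lay within the Nat10-ZcKO range of 157 to 319 CPM. The rise from GV to MII was 3.05 larger on the log2 scale in Nat10-ZcKO than in WT (SE 1.67, adjusted p = 0.806, edgeR interaction term), which does not pass the test. Without the 3 libraries that stood apart it was 1.32 larger (adjusted p = 0.839). The relatives Thumpd2 and Thumpd3 had 1 and 17 counts over all 11 libraries, too few to compare.

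**Figure D1:**
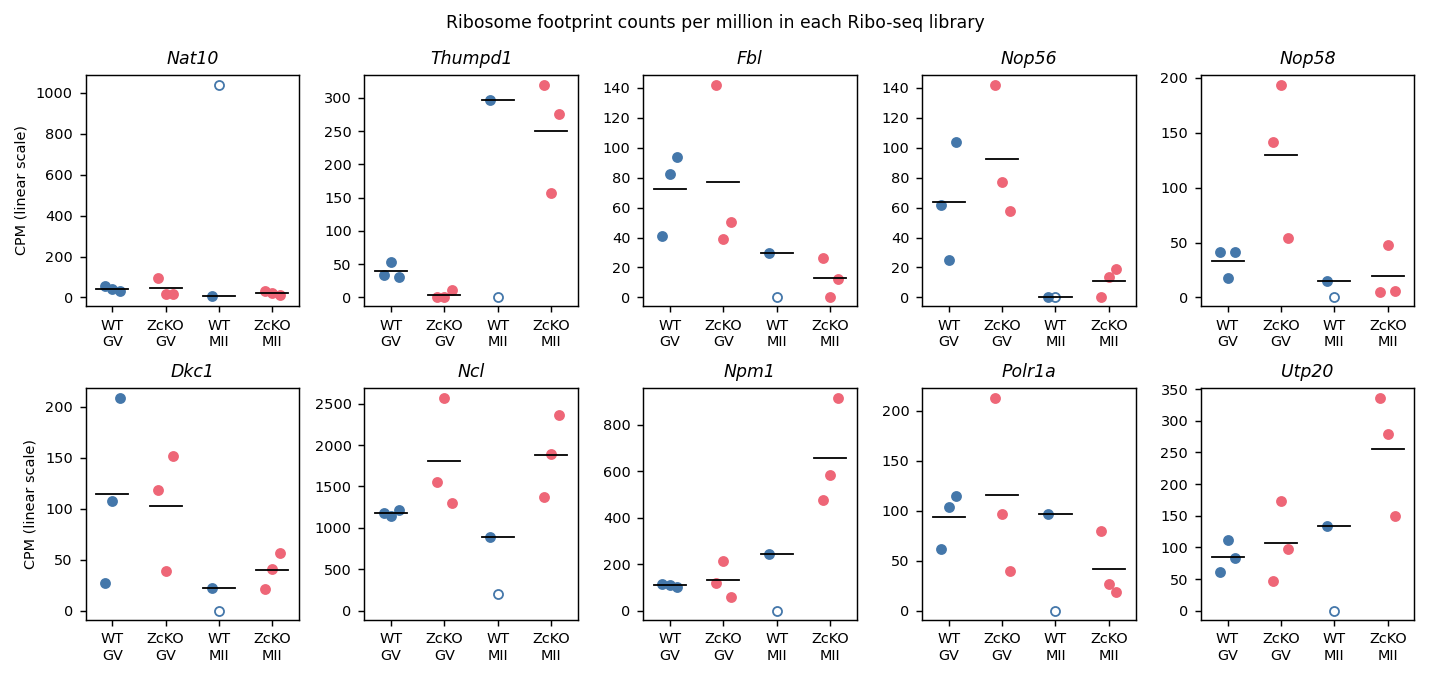
CPM (library-scaled counts) on a linear axis for each of the 10 genes in the 11 Ribo-seq libraries. Points are libraries, blue for WT and red for Nat10-ZcKO (ZcKO in the axis labels), the open circle is WT MII replicate 2 with 4815 counts, and bars are group means without it. Thumpd1 and Npm1 lie higher at MII than at GV, and Fbl, Nop56 and Dkc1 have lower means at MII.

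Npm1 and Ncl are abundant nucleolar proteins that carry, fold and assemble ribosomal components and histones. Npm1 (chr11:33152287-33163206, GRCm38) had 17, 31 and 10 counts in WT GV (117, 111 and 104 CPM) and 5, 11 and 17 in Nat10-ZcKO GV (118, 213 and 61.3 CPM). At MII it had 33 counts in WT replicate 1 (245 CPM), 0 in WT replicate 2, and 90, 86 and 146 in Nat10-ZcKO (479, 586 and 914 CPM). The Nat10-ZcKO MII libraries were above WT MII replicate 1, which was above every GV library. WT MII replicate 2 does not bear on the order, since 3 counts there stand for 623 CPM. In Nat10-ZcKO, Npm1 rose by 2.34 on the log2 scale (SE 0.735, adjusted p = 0.0468, edgeR), and by 3.16 without GV replicates 1 and 2 (SE 0.647, adjusted p = 1.35e-05). In WT the change was 1.29 (SE 0.646, adjusted p = 0.123), and without MII replicate 2 Npm1 rose by 1.21 (SE 0.382, adjusted p = 0.0178). Between genotypes at MII, Npm1 was 1.89 higher in Nat10-ZcKO (SE 1.53, adjusted p = 0.997), and 1.39 higher against WT MII replicate 1 alone (adjusted p = 0.617). The interaction was 2.46 (SE 1.82, adjusted p = 0.806), and 1.96 without the 3 libraries that stood apart (adjusted p = 0.685).

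Ncl (chr1:86344719-86359400) had more footprints than the other 9 genes together, with 2202 counts over the 11 libraries. Its levels were 1182, 1138 and 1217 CPM in WT GV, while Nat10-ZcKO GV had 1558, 2572 and 1303 CPM. At MII they were 890 and 208 CPM in WT, the second from 1 count, and 1378, 1895 and 2361 CPM in Nat10-ZcKO. In CPM each Nat10-ZcKO library was thus above each WT library at the same stage. At GV this order depended on the scaling, and without the 10 genes with the most counts the genotypes overlapped. WT GV replicate 1 then had 2688 CPM on the genes of the opening list, with 70.2% of their counts on Ncl. Nat10-ZcKO GV replicate 1 had 3043 CPM, with 60.6% on Ncl. The fitted difference was 0.73 at GV (SE 0.758, adjusted p = 0.900) and 1.71 at MII (SE 2.001, adjusted p = 0.997), each below its standard error, and 1.04 at MII against WT replicate 1 alone (adjusted p = 0.907). Against Nat10-ZcKO GV replicate 3 alone the GV difference was 0.34 (adjusted p = 0.614). From GV to MII the Ncl change in WT was -0.68 (SE 1.48, adjusted p = 0.742), and -0.33 without MII replicate 2 (adjusted p = 0.312). Per length, Ncl reached 718 ± 28.6 TPM in WT GV (SD, n = 3), ahead of Npm1 at 147 ± 7.09, Fbl at 95.5 ± 37.0 and Dkc1 at 94.2 ± 75.2 TPM. Thumpd1 was at 48.8 ± 14.9, Nop56 at 40.6 ± 25.5, Nop58 at 26.2 ± 10.6, Polr1a at 23.4 ± 7.14, Nat10 at 17.5 ± 4.90 and Utp20 at 13.1 ± 3.81 TPM. The 3 libraries of Fbl and Dkc1 overlapped each other, as did those of neighbours from Thumpd1 down to Utp20, while Ncl stood clear of all others and Npm1 of all but Dkc1. By the likeness of log2(CPM + 10) over the 10 libraries other than WT MII replicate 2, the genes nearest to Ncl among 2996 were Cnot3, Hnrnpul2 and Vcpip1, with Pearson r of 0.824, 0.813 and 0.812. These values share library depth, and Cnot3 and Vcpip1 had only 128 and 65 counts over all libraries.

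The snoRNP core proteins had low counts at GV, and the values of Fbl and Nop56 in the 4 deeper MII libraries lay below every GV value. Fbl, the methyltransferase of box C/D particles (chr7:28169710-28179269), was at 41.2, 82.3 and 93.6 CPM in WT GV, while Nat10-ZcKO GV had 142, 38.7 and 50.5 CPM. At MII it was at 29.7 and 0 CPM in WT, and the knockout had 26.6, 0 and 12.5 CPM. None of the 4 MII libraries other than WT replicate 2 reached a GV library. This order rests on few counts. The lowest GV value, 38.7 CPM, was 2 counts, under the limit of 3, and the highest MII value, 29.7 CPM, was 4 counts. The fitted Fbl change in WT was -0.94 (SE 0.867, adjusted p = 0.412), and -1.17 without MII replicate 2 (adjusted p = 0.262). Its partner Nop56 (chr2:130274430-130279313) was at 61.9, 25.05 and 104 CPM in WT GV, while Nat10-ZcKO GV had 142, 77.4 and 57.7 CPM. It had 0 counts in both WT MII libraries, and the knockout had 0, 2 and 3 at MII (0, 13.6 and 18.8 CPM). Without WT MII replicate 2, the fit placed Nop56 lower at MII in WT, with 1 MII library that held 0 counts. It passed the count filter of that fit only through WT GV replicate 3, at 104 CPM, so the filter itself favoured a fall. Set against the limit that 0 counts allow in WT MII replicate 1, 3 counts in that library, Nop56 was at least 2.24-fold lower than in pooled WT GV. Nop58 (chr1:59684971-59719044) had 6, 5 and 4 counts in WT GV and 6, 10 and 15 in Nat10-ZcKO GV, or 41.2, 17.9 and 41.6 against 142, 193 and 54.1 CPM, so the knockout libraries were the higher at GV. The 142 and 193 CPM are from the knockout replicates 1 and 2, which stood apart. Replicate 3 alone, at 54.1 CPM, was close above WT values that rest on 4 to 6 counts. At MII the WT pair had 2 and 0 counts, and the knockout libraries 1, 7 and 1 (5.32, 47.7 and 6.26 CPM). Nop58 was too thinly covered for any fit of all libraries within a stage or genotype.

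Dkc1, the pseudouridine synthase of box H/ACA particles (chrX:75095854-75109777), varied widely between GV libraries, at 27.5, 107 and 208 CPM in WT and 118, 38.7 and 152 CPM in Nat10-ZcKO. At MII it was at 22.2 and 0 CPM in WT and 21.3, 40.9 and 56.4 CPM in Nat10-ZcKO. WT MII lay below WT GV, with pooled WT GV at 4.66 times the level of WT MII replicate 1 (counting bounds 1.51 and 23.3), and the knockout groups overlapped. The fitted change in WT was -1.88 (SE 0.921, adjusted p = 0.117), and -2.13 without MII replicate 2 (adjusted p = 0.0795). In Nat10-ZcKO Dkc1 entered the fit only without GV replicates 1 and 2, and there it fell by 2.22 (SE 0.704). It passed the count filter of that fit only through GV replicate 3, at 152 CPM, so the filter itself favoured a fall.

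Polr1a, the largest subunit of RNA polymerase I (chr6:71909053-71984935), was at 61.9, 104 and 114 CPM in WT GV, 212, 96.7 and 39.7 CPM in the GV knockout, 96.4 and 0 CPM in WT MII, and 79.8, 27.3 and 18.8 CPM in the MII knockout. All groups overlapped. Utp20 is a large scaffold of the small subunit processome, the complex that assembles around the rRNA precursor (chr10:88746607-88826804). In Nat10-ZcKO its mean was higher at MII than at GV, although the stages overlapped. In WT, MII replicate 1 lay above every GV library. The WT mean was lower at MII only through the 0 in replicate 2. Utp20 was at 61.9, 111 and 83.2 CPM in WT GV and 47.2, 174 and 97.4 CPM in the GV knockout. At MII it was at 133 and 0 CPM in WT and 335, 279 and 150 CPM in the knockout. Each Nat10-ZcKO MII library was above WT MII replicate 1, but the difference of 1.05 on the log2 scale had an SE of 1.01 (adjusted p = 0.997), and it was 0.82 against replicate 1 alone (adjusted p = 0.999).

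Over the 10 genes, calls were made for maturation and for no other comparison, in the fits described here. A gene is called here at a Benjamini-Hochberg adjusted p under 0.05 over all genes tested in a fit. Between genotypes at GV 0 of the 5 genes that could be tested were called, where 0% of 1765 genes tested were (0 by edgeR, with 60 genes up and 25 down where p is left unadjusted and the threshold is 0.05, and 13 by DESeq2). At MII 0 of 5 were called, against 0.191% of 2097 genes. From GV to MII in WT 0 of 6 were called, against 21.5% of 2045 genes (9.98% higher and 11.5% lower). In Nat10-ZcKO 2 of 5 were called higher, Thumpd1 and Npm1, and 0 lower, against 10.2% higher and 6.02% lower of 2225 genes. Thumpd1 passed the count filter of this fit through its MII libraries. Nat10, Fbl, Dkc1, Nop56 and Nop58, all with lower Nat10-ZcKO means at MII than at GV, did not pass it. The direction of the calls among the genes tested therefore depends in part on the filter. For the interaction 0 of 10 were called, against 0.906% of 3863 genes. Without WT MII replicate 2 the WT maturation fit had 8 of the genes and called 2 higher, Thumpd1 and Npm1, and 1 lower, Nop56, where 20.9% of 3264 genes were called higher and 24.0% lower. With 1 MII library left, that library is assumed to vary as the GV libraries do. Thumpd1 passed the filter of this fit only through that MII library and Nop56 only through WT GV replicate 3, so their directions depend in part on the filter. Without GV replicates 1 and 2 the Nat10-ZcKO maturation fit had 7 of the genes and called Thumpd1 and Npm1 higher and 1 lower, Dkc1, where 19.0% of 3741 genes were called higher and 19.6% lower. Here the lone GV library is assumed to vary as the MII libraries do, and it also enters the fit of all libraries. Dkc1 passed the filter of this fit only through that GV library and Thumpd1 only through MII libraries, so their directions too depend in part on the filter. The 2 maturation comparisons share no library. Thumpd1 and Npm1 in Nat10-ZcKO each lost the call when any single Nat10-ZcKO MII replicate was left out, with changes of 4.72 to 5.25 and 2.23 to 2.95 (adjusted p = 0.0643 to 0.118 and 0.0985 to 0.191), and Npm1 also without GV replicate 2 (2.90, adjusted p = 0.0511).

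The wider rRNA processing pathway, 147 genes in 7 lists that include these members, is set here against all genes tested in the same fit. In the fits of all libraries its calls were close to the rest in WT, with 2 called higher and 4 lower of 38 (5.26% and 10.5%, against 9.98% and 11.5% of all genes). In Nat10-ZcKO 3 were called higher and 5 lower of 44 (6.82% and 11.4%, against 10.2% and 6.02%). The median change was -0.98 on the log2 scale in WT against -0.44 over all genes, and -0.78 in Nat10-ZcKO against -0.07. Without the libraries that stood apart, 5 were called higher and 19 lower of 64 in WT (7.81% and 29.7%, against 20.9% and 24.0%; median -1.22 against -0.35). In Nat10-ZcKO the counts were then 6 higher and 25 lower of 78 (7.69% and 32.1%, against 19.0% and 19.6%; median -1.12 against 0.11). Of the pathway genes called lower, 14 were the same in both genotypes, 73.7% of the WT and 56.0% of the Nat10-ZcKO list, and over all genes the shared part was 63.6% and 67.8%. Of those called higher 4 were the same, 80.0% and 66.7%, against 67.4% and 64.6% over all genes. Across the 58 pathway genes tested in both genotypes, 40 had changes below 0 in both, 11 above 0 in both and 7 of opposite sign. The Pearson r between the 2 sets of changes was 0.703 for these genes and 0.824 for the 2846 genes tested in both, so the likeness of the genotypes was not particular to the pathway.

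**Figure D2:**
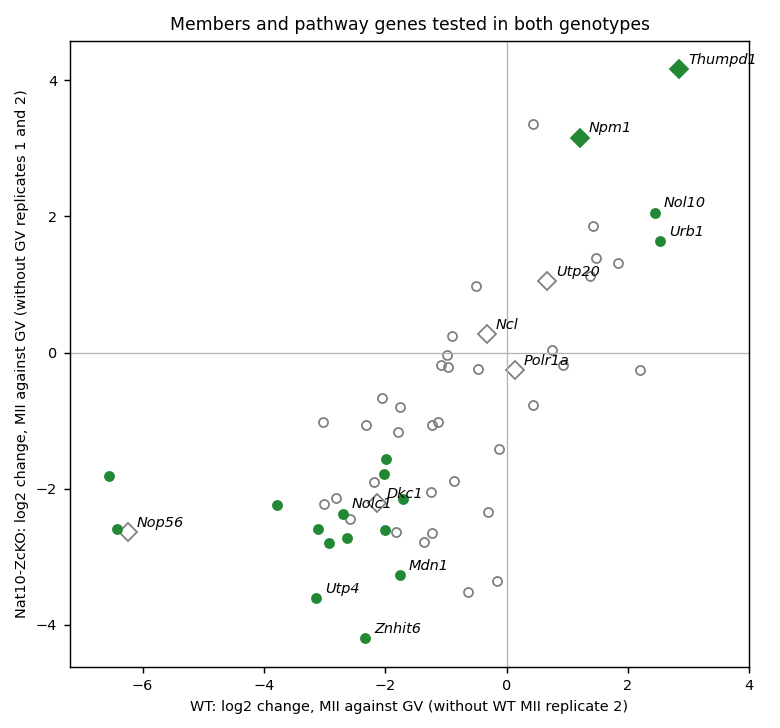
Log2 change from GV to MII for the 58 pathway genes tested in both genotypes, in WT on the x axis (3 GV libraries and MII replicate 1) and in Nat10-ZcKO on the y axis (GV replicate 3 and 3 MII libraries). Diamonds are the genes of the opening list and circles other pathway genes, and filled green symbols were called in the same direction in both. Of the 58 symbols 40 lie below 0 on both axes, and Thumpd1, Npm1, Nol10 and Urb1 are the 4 filled ones at the upper right. The points for Nop56, Taf1a and Tbl3, left of -6, have 0 counts in WT MII replicate 1, so their place depends on the fit.

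Small subunit processome genes were the largest of the lists. Of 53, 14 could be tested in WT in the fit of all libraries, with 1 called higher and 2 lower (median -1.30), and 14 in Nat10-ZcKO, with 1 higher and 1 lower (median -1.10). The shares called lower, 14.3% and 7.14%, were near the 11.5% and 6.02% of all genes. The share called higher was 7.14% in each genotype, against 9.98% and 10.2% of all genes. Without the libraries that stood apart the counts were 1 higher and 8 lower of 24 in WT (33.3% lower, against 24.0% of all genes) and 1 higher and 9 lower of 31 in Nat10-ZcKO (29.0% against 19.6%). Bms1, a GTPase of the processome and the best covered of the list, had 542 ± 119 CPM in WT GV and 156 CPM in WT MII replicate 1, while the knockout had 544 ± 395 CPM at GV and 196 ± 8.31 CPM at MII (SD, n = 3 each). In these reduced fits it fell by 1.70 in WT (adjusted p = 0.00162) and fell by 2.15 in Nat10-ZcKO (adjusted p = 6.07e-05). Imp4, Noc4l and Utp4 fell too in both reduced fits, with Noc4l at -2.93 and -2.79 and Utp4 at -3.14 and -3.61 in WT and Nat10-ZcKO. Noc4l and Utp4 were called lower in WT with all libraries too (adjusted p = 0.0398 and 0.0367), as was Nol7 in Nat10-ZcKO (adjusted p = 0.0422). Wdr36, with 245 ± 77.9 CPM in WT GV, fell by 1.79 in WT (adjusted p = 0.00844) in the reduced fit. The exception in this list was Nol10, with 5, 16 and 6 counts in WT GV, 36 and 1 in WT MII, 2, 3 and 16 in the GV knockout, and 60, 40 and 48 in the MII knockout. It rose by 2.62 in WT (SE 0.647, adjusted p = 0.00268) and by 2.15 in Nat10-ZcKO (SE 0.679, adjusted p = 0.0471) with all libraries. As a share of all counts, the 53 genes took 0.322% to 0.386% in WT GV, 0.321% to 0.609% in Nat10-ZcKO GV, 0.173% and 0.125% in WT MII, and 0.173% to 0.268% in the MII knockout, so the MII libraries were all below the GV libraries.

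Large subunit assembly factors had 1 gene called higher and 2 lower of 12 in WT, against 9.98% higher and 11.5% lower of all genes. In Nat10-ZcKO 0 were higher and 2 lower of 15, against 10.2% and 6.02%. Without the libraries that stood apart 2 were higher and 6 lower of 20 in WT (30% lower, against 24.0%) and 2 higher and 8 lower of 24 in Nat10-ZcKO (33.3% against 19.6%). Mdn1, a giant ATPase that strips factors from the maturing subunit, had 18, 40 and 23 counts in WT GV and 6 and 0 in WT MII. The knockout had 7, 23 and 94 at GV and 12, 10 and 0 at MII. Mdn1 fell by 3.14 in Nat10-ZcKO with all libraries (adjusted p = 0.0431) and fell by 1.76 in WT in the reduced fit (adjusted p = 0.0179). The GTPase Gnl2 fell by 2.55 in Nat10-ZcKO (adjusted p = 0.0277), and the helicases Ddx27 and Ddx56 fell in WT, at -2.85 and -3.52 (adjusted p = 0.0357 and 0.0209). Pelp1 fell by 2.06 in WT in the reduced fit (adjusted p = 0.00523). Urb1 rose by 2.53 in WT and 1.63 in Nat10-ZcKO in the reduced fits (adjusted p = 0.00208 and 0.0383), from 4 to 7 counts in each WT GV library to 27 in WT MII replicate 1. Brix1 rose by 1.38 in WT (adjusted p = 0.00658) and Nip7 by 3.35 in Nat10-ZcKO (adjusted p = 0.00882). Ebna1bp2 was called higher in WT (2.72, adjusted p = 0.00511) with 11 counts in MII replicate 1 and 2 in replicate 2, and was not called without replicate 2.

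For the smaller lists the shares over all genes in the fits of all libraries were 9.98% higher and 11.5% lower in WT. In Nat10-ZcKO they were 10.2% and 6.02%. Among these lists, box C/D genes had 0 called of 3 in WT and 1 lower of 3 in Nat10-ZcKO. That gene was Znhit6, an assembly factor of the particle, which fell by 3.82 (adjusted p = 0.0245), from 127 ± 34.5 CPM in WT GV, and 123 ± 47.0 CPM with the knockout at that stage, to 10.1 ± 13.2 CPM in Nat10-ZcKO MII (SD, n = 3 each). Ruvbl2 was at 176 ± 29.2 CPM in WT GV and 74.2 CPM in WT MII replicate 1, while the knockout had 155 ± 74.4 CPM at GV and 111 ± 32.1 CPM at MII, and Ruvbl1 had 18 and 9 counts in the GV groups and 0 in both MII groups. The box C/D list took 0.0440% to 0.0676% of counts in WT GV, 0.0599% to 0.0897% in Nat10-ZcKO GV, 0.0222% and 0% in WT MII, and 0.0250% to 0.0263% in the MII knockout. Box H/ACA genes had 1 gene tested in each genotype and 0 called. In the reduced Nat10-ZcKO fit Gar1, a subunit of the same particle as Dkc1, rose by 1.86 (adjusted p = 0.0139) while Dkc1 fell. Nop10 and Naf1 had 28 and 14 counts in WT GV and at most 5 in an MII group. For RNA polymerase I and its factors 0 of 3 were called in WT and 0 of 5 in Nat10-ZcKO, and in the reduced fits 0 higher and 2 lower of 7 (28.6%, against 24.0% of all genes) and 0 higher and 4 lower of 9 (44.4% against 19.6%), with Polr2e, a subunit shared by the RNA polymerases, at -1.99 and -1.56 and Taf1a called lower in both. Polr2f, another shared subunit, had 338 ± 13.9 CPM in WT GV and 171 CPM in WT MII replicate 1, while the knockout had 209 ± 139 CPM at GV and 354 ± 180 CPM at MII. In the list of nucleolar phosphoproteins, Nolc1, a snoRNP chaperone, fell by 2.88 in Nat10-ZcKO (adjusted p = 0.0287) and fell by 2.70 in WT in the reduced fit (adjusted p = 0.00289). Npm2, the oocyte relative of Npm1, had 286 ± 305 CPM in the GV knockout, with 0 counts in replicate 1, and 202 ± 27.9 CPM in the MII knockout, and it fell by 1.89 in the reduced Nat10-ZcKO fit (adjusted p = 0.000537), opposite to Npm1. Mybbp1a had 53 counts in WT GV and 7 in WT MII, and 48 and 29 in the knockout, and was not called.

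**Figure D3:**
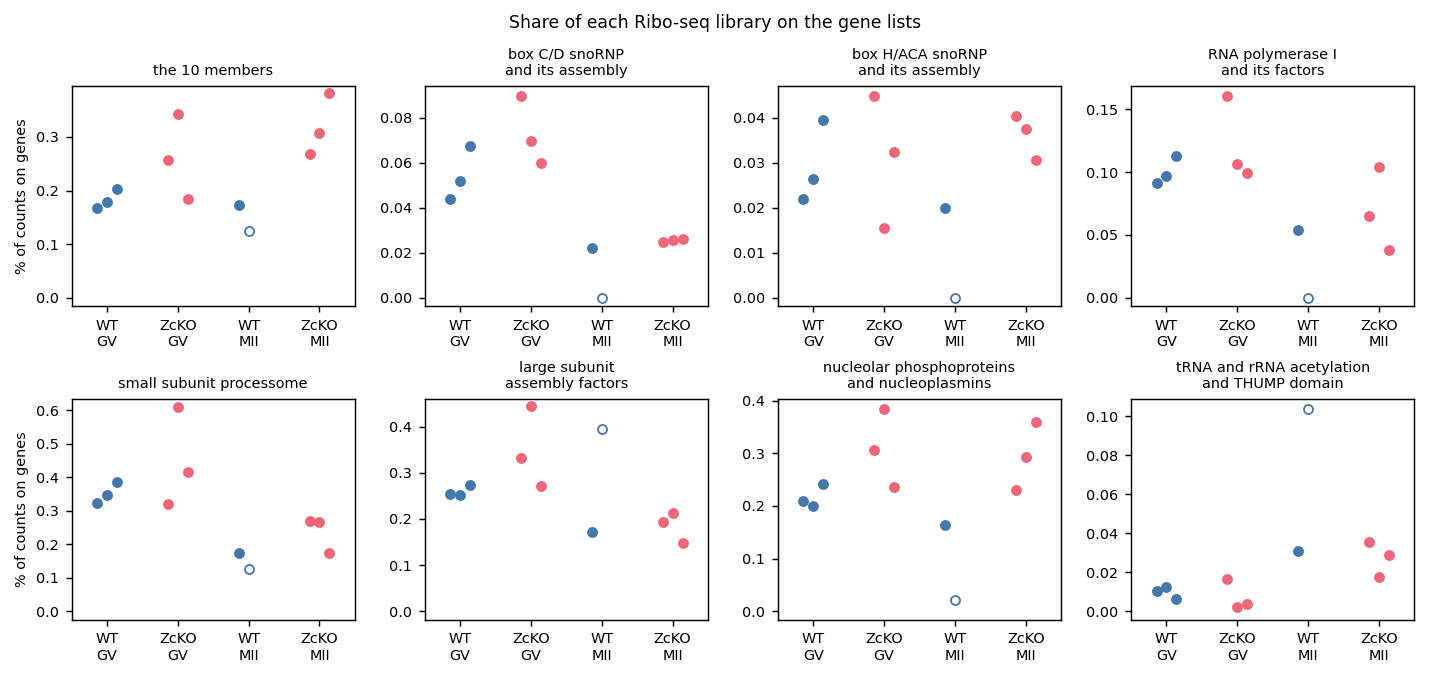
Percent of each Ribo-seq library's counts that fell on the 10 genes and on each of the 7 pathway lists, linear axes. Points are libraries, blue for WT and red for Nat10-ZcKO, and the open circle is WT MII replicate 2 with 4815 counts. The small subunit processome and box C/D lists are lower at MII than at GV in both genotypes, with means of 0.352% and 0.0545% in WT GV against 0.173% and 0.0222% in WT MII replicate 1, and of 0.448% and 0.0731% in Nat10-ZcKO GV against 0.236% and 0.0257% in Nat10-ZcKO MII.

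Between genotypes few genes of any kind were called. At GV 0 of 35 pathway genes were called, where 0% of all genes were, with a median change of 0.15 against -0.06 over all genes. Against Nat10-ZcKO GV replicate 3 alone, 1 of 87 was called, Mdn1, which was 1.26 higher in the knockout (adjusted p = 0.0456), where 2.01% of 3879 genes were called. At MII 0 of 28 were called, where 0.191% of all genes were, and 0 of 44 against WT MII replicate 1 alone, where 0.205% were. For the interaction 0 of 80 were called, against 0.906%. Summed over the 10 genes of the opening list, the level was 1834 ± 176 CPM in WT GV, 2613 ± 790 CPM in the GV knockout and 3190 ± 585 CPM in Nat10-ZcKO MII (SD, n = 3 each), and 1735 and 1246 CPM in WT MII. Ncl made up 51.3% to 75.1% of this sum in the 10 libraries other than WT MII replicate 2. Without Ncl the sums were 655 ± 155, 802 ± 241 and 1312 ± 147 CPM, and 845 and 1038 CPM in WT MII.

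The ends of the annotated transcripts of these genes were searched for the CPE letters TTTTAT or TTTTAA and for the polyadenylation signals AATAAA or ATTAAA, on the sense strand of the last 100 bases of the principal GENCODE M21 transcript. The 2 kinds of letters can share bases, as in the windows of Nat10 and Dkc1, and Dkc1 has a further CPE that stands apart from its signal. A CPE was present in 4 of the 10 genes, Nat10, Thumpd1, Dkc1 and Utp20, against 27.4% of 19837 genes with a 3′ UTR of 100 bases or more. Those 19837 genes include genes with few or no footprints. Of the 1817 genes tested and not called in Nat10-ZcKO maturation, 36.4% had a CPE. Counting only a CPE that shares no base with a polyadenylation signal leaves 3 of 10, without Nat10. The shares were then 25.7% of the 19837 genes and 34.2% of the 1817. Windows of 30 bases are printed for these 4 genes with all such letters in capitals, to show how close the CPE lies to the signal.
Thumpd1: aagttcctgataTTTTAAaaAATAAAaatg
Utp20: gtatTTTTAATTAAAatgTTTTATatgcta
Nat10: gagagagaatatTTTTAATAAAtgatgtct
Dkc1: gtgagagaatatTTTTATTAAAagtctgag
The window of Thumpd1 starts 45 bases before the transcript end, that of Utp20 30, that of Nat10 41 and that of Dkc1 42. Thumpd1, which rose in Nat10-ZcKO and, without MII replicate 2, in WT, has the CPE 2 bases before AATAAA. Npm1, called higher in the same fits, has neither kind of letters in the last 100 bases of its annotated transcript, and Dkc1, which was called lower in the reduced Nat10-ZcKO fit, has both. Fbl, Nop58, Ncl and Polr1a have a polyadenylation signal and no CPE, and Nop56 has neither. Among all genes tested in Nat10-ZcKO maturation, a CPE was found in 64.7% of 224 genes called higher, 17.2% of 116 called lower and 36.4% of 1817 not called.

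In acRIP-seq the question was which mRNAs are enriched by the antibody to ac4C over IgG. Each antibody has 1 library, with 970997 counts on genes for anti-ac4C and 116232 for IgG, so intervals are exact (Clopper-Pearson, 95%) and cover counting error only, and there is no test. The ratio of CPM had a median of 1.27 over the 4680 genes with 50 counts or more, above 1, so 1 is not the level of a typical gene. Utp20 was at 3.04 (1.27 to 9.52), from 127 counts against 5, and the mRNA of Nat10 itself at 2.85 (1.19 to 8.93), from 119 against 5. Polr1a was at 1.78 (0.784 to 4.97), Thumpd1 at 1.47 (0.881 to 2.62) and Npm1 at 1.15 (0.831 to 1.62). Ncl, with 1785 counts against 259, was at 0.825 (0.724 to 0.943), but its side of 1 depends on the scaling: it was at 0.919 with TMM factors and at 1.28 when scaled to all rows, those naming no gene included. The lowest of the 9 ratios were those of 3 snoRNP proteins, Nop58 at 0.404 (0.304 to 0.543), Dkc1 at 0.362 (0.276 to 0.481) and Nop56 at 0.343 (0.187 to 0.665). These 3 ratios stayed below 1 with TMM factors, at 0.382 to 0.450, and when scaled to all rows, at 0.533 to 0.627. Fbl, the other snoRNP protein, had 12 counts against 0, with an exact lower bound of 0.333 and no upper bound, so it cannot be placed.

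Of the 9 members with 50 counts or more, 2 had an interval above 1 (22.2%, against 32.9% of the 4680 genes), and 4 had one below 1 (44.4%, against 19.2%). The interval of Nat10 includes the median of all genes, and that of Utp20 starts at it. With TMM factors 3 members had an interval below 1. The intervals of Utp20, Nat10, Polr1a and Thumpd1 overlapped each other, and those of Nop58, Dkc1 and Nop56 did too, while the 3 snoRNP genes lay wholly below Thumpd1, Npm1 and Ncl. In the pathway lists the median ratio was 1.59 for small subunit processome genes and 1.52 for large subunit factors with 50 counts or more (34 and 30 genes), and 0.561 for 5 box C/D genes. The ratio moved with CDS length over all genes, with medians of 1.02 for 1221 genes under 1000 bases, 1.22 for 1709 genes from 1000 to under 2000, 1.45 for 848 genes from there to under 3000 and 1.62 for 897 genes of 3000 and over. Utp20, Polr1a and Nat10, with the highest ratios, have 8367, 5151 and 3072 coding bases, and Dkc1, Nop56 and Nop58, with the lowest, 1527, 1740 and 1608. Npm1 and Thumpd1, with 876 and 1050, are the shortest of the 9. Their ratios were above those of Dkc1, Nop56 and Nop58 and of Ncl, with 2121 bases, so the order of the members did not follow length throughout. The part of length in these ratios was not tested.

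**Figure D4:**
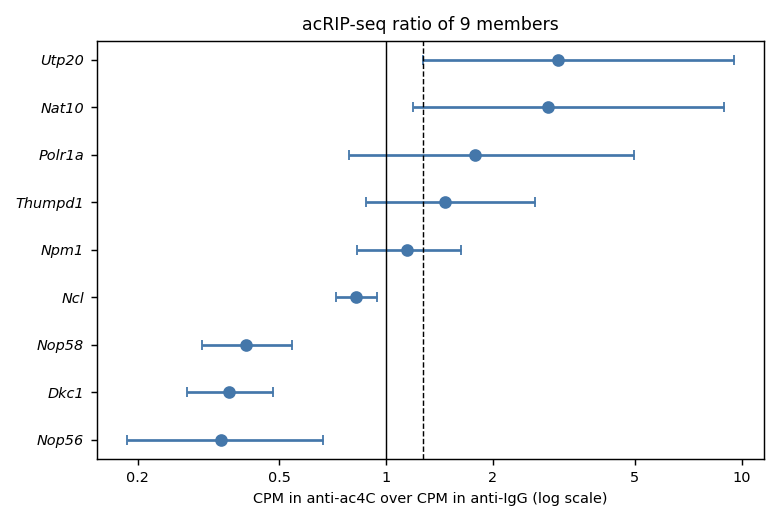
Ratio of CPM in the anti-ac4C library to CPM in the anti-IgG library on a log axis for the 9 genes with an IgG count (Fbl has none). Points are ratios of 1 library each, bars exact 95% counting intervals, the solid line is 1 and the dashed line the median of 1.27 over 4680 genes. Utp20 and Nat10 lie right of 1 with their intervals, and Ncl, Nop58, Dkc1 and Nop56 left of it.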

How the data were processed

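The authors deposited raw counts, whole numbers per gene with no normalization, in 1 file per library. Ribo-seq counts are on the CDS. The acRIP-seq files add 5 rows that name no gene, which were left out of totals; fragments on no feature were 46.7% for IgG and 17.1% for ac4C. The submitters' processing notes name cutadapt, STAR, HTSeq and mm10, and the handling of PCR duplicates is not given in the sources used here, so counts may not be independent molecules. Reads shared with pseudogenes, which Npm1 in particular has in number, may have been dropped or split.

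CPM are counts per 1000000 counts on genes, and TPM use CDS lengths from GENCODE M21, to which 22399 identifiers matched and 43 did not. Totals of 4815 to 279464 counts set the limit of 3 counts at 10.7 to 623 CPM. Each comparison was fitted with edgeR 4.0.16 in R 4.3.3 on the libraries compared (filterByExpr, TMM, glmQLFit, glmQLFTest, Benjamini-Hochberg adjustment over all genes tested), and the stage by genotype interaction on all 11. For the 10 members a log2 change is given where the gene was called, or was tested and did not overlap between groups, for Thumpd1 and Npm1 in both maturation comparisons and the interaction, and beside these in fits without the libraries that stood apart. A standard error is the size of the log2 change over the root of its F statistic. acRIP ratios and pooled ratios carry exact Clopper-Pearson 95% bounds. The fits were tested on simulated data. DESeq2 1.42.0, scaling by library size, other filters, each library left out, the replicate number as a block and all libraries in one fit were alternatives. Sequences and coordinates are from GRCm38, with 1-based positions, and the primers from the study's list of oligonucleotides. The principal transcript is the APPRIS principal one with a complete end. Other python steps used numpy 2.4.6, scipy 1.17.1 and pandas 2.3.3.

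The members and lists were chosen with earlier results of these data known. Genes named from the lists are those called in a comparison, the 3 with the highest mean CPM in WT GV in each list, and the 3 nearest to Ncl in pattern; genes called only in the reduced fits were named after their values were seen. Of the 187 genes listed, 3 were not found in the annotation under their names.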

Additional observations from a re-analysis of the deposited data

How the results depend on the processing

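Of 147 alternative values of the log2 changes given, 128 kept their direction and side of the threshold, 9 lost a call, 9 gained one and 1 reversed. The reversed value is Npm1 in WT maturation without WT MII replicate 1, at -6.99, where MII rests on the 4815-count library, and its range with 1 library left out was -6.99 to 1.47. Thumpd1 in Nat10-ZcKO maturation ranged from 4.32 to 7.97 with 1 library left out and Npm1 from 2.23 to 2.95. Npm1 also lost its call in the fit of all 11 libraries (2.78, adjusted p = 0.123), and with the replicate number as a block (2.34, adjusted p = 0.113).

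Counts of genes called moved widely, and the causes were not tested. Between genotypes at GV the count of 0 became 13 with DESeq2, 41 without a filter beyond 1 count, 25 in the fit of all 11 libraries, 78 without Nat10-ZcKO GV replicates 1 and 2, and 0 to 385 with 1 library left out. At MII the count of 4 became 34 with DESeq2, 24 with library size alone, 0 without the filter, 17 with a minimum of 10 counts, 19 in the fit of all libraries, and 0 to 1451 with 1 left out. In WT maturation the count of 439 became 925 with library size alone (277 higher and 648 lower, against 204 and 235), 0 without the filter, 35 with a minimum of 10 counts, 78 in the fit of all libraries, and 39 to 1902 with 1 left out, of which 1464 without WT MII replicate 2. In Nat10-ZcKO maturation the count of 360 became 1445 without GV replicates 1 and 2 and 0 to 778 with 1 left out, with 0 when any MII replicate was left out. Library size alone gave 299 higher and 108 lower there, against 226 and 134. For the interaction the count of 35 became 10 without the filter, 17 with a minimum of 10 counts, 9 without Nat10-ZcKO GV replicates 1 and 2, 0 without those and WT MII replicate 2 (an alternative chosen after seeing the data), and 0 to 948 with 1 left out.

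With the replicate block the counts were 0 at MII, 0 in WT maturation, 125 in Nat10-ZcKO maturation and 8 for the interaction. Deviations of same-numbered libraries from their group means correlated at -0.0310 to 0.149 over 3846 genes. With few libraries a group and low counts this check could miss a pairing, so it does not settle whether the numbers pair the libraries.

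The summed CPM of the 10 genes became 2725, 3458 and 4326 in WT GV, Nat10-ZcKO GV and Nat10-ZcKO MII without the 10 genes with the most counts. Without Ncl it became 655, 802 and 1312, and 942 as the mean of WT MII. With 1 library left out it was 1737 to 1909 in WT GV, 2209 to 2998 in Nat10-ZcKO GV, 1246 to 1735 in WT MII and 2871 to 3446 in Nat10-ZcKO MII. For acRIP-seq, 6 members had an interval above 1 and 2 below it when scaled to all rows, those naming no gene included, and 10 and 0 without scaling. The low counts of most members per library limit which differences could be detected.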
